A study of Rattus norvegicus with 21 samples.

Results

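The neurotrophin genes Bdnf and Ntf3 and the receptor genes Ntrk2, Ntrk3 and Ngfr were followed across areas of the rat dentate gyrus that did or did not generate fast ripples. The 5 genes were chosen by name out of 13317 genes with a symbol in the table, and each had 1 probe on the array. All 5 were among the 8211 features that were detected well enough to be tested, meaning on 10 or more arrays at a detection p under 0.01. Ntf4, a further neurotrophin gene outside the 5, also had a probe, which was detected on 0 of 21 arrays.

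Hippocampal slices came from 6 Wistar rats, P91 and B9 with 4 and 5 arrays, B3 and B10 with 4 each, and B1 and B13 with 2 each, and every rat had been injected with pilocarpine to make it epileptic. Recording in the slice had then sorted areas into fast ripple (FR) areas and areas without them (nonFR), and total RNA was hybridised to Illumina rat beadchips. There were 10 FR arrays and 11 nonFR arrays from 11 slices, with both areas in 10 slices and 1 slice of B9 with a nonFR area alone. Every group carried the pilocarpine treatment, no array of an untreated rat was part of the design, and the labels name no age, sex or chip.

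Neurotrophins are secreted growth factors that support the survival of neurons and adjust the strength of their synapses. BDNF, the product of Bdnf, acts through the receptor kinase TrkB (Ntrk2), NT-3, the product of Ntf3, acts mainly through TrkC (Ntrk3), and the p75 receptor (Ngfr) binds all neurotrophins and their uncleaved precursors. In the rat dentate gyrus, granule cells are a main site of Bdnf and Ntf3 transcripts, and seizures are known to raise Bdnf and to lower Ntf3 in them. Fast ripples are short, very fast field oscillations recorded in epileptic tissue.

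Bdnf is transcribed from several alternative first exons, and RefSeq (build GRCr8) lists 6 start sites for Bdnf and 3 for Ntf3. The 150 bases before 3 of these starts are printed because Bdnf and Ntf3 carried the largest differences among the 5 genes, and because the single Bdnf probe gives 1 value for a gene with many starts. Start 1 is the most upstream of Bdnf and start 4 the only one of its 6 whose window held the CGTCA motif described below. Which transcripts that probe reads is not given in these sources. Each run ends at the base before the start, on the strand of transcription, and capitals mark a motif. The windows are Bdnf start 1 at chr3:116619483-116619632 (plus strand), Bdnf start 4 at chr3:116637708-116637857 (plus strand) and Ntf3 start 1 at chr4:160670624-160670773 (minus strand).
Bdnf start 1: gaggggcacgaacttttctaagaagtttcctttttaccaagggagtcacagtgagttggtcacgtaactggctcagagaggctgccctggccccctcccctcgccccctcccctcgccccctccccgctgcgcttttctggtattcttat
Bdnf start 4: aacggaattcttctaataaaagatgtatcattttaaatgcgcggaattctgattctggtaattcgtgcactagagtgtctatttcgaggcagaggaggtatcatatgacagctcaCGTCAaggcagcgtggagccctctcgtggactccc
Ntf3 start 1: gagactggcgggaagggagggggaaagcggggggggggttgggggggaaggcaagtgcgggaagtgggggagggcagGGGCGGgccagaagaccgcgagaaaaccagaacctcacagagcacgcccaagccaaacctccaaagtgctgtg

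The motifs searched, on both strands, were the cyclic AMP response element TGACGTCA, its core CGTCA, which lies inside the full element, and the GC box GGGCGG. The Bdnf start 4 window held CGTCA with its first base at position -35 from the start, and the Ntf3 start 1 window held GGGCGG at position -73. Of the windows not printed, that of Bdnf start 3 held 2 GC boxes, those of Bdnf starts 2, 5 and 6 held no motif, and those of Ntf3 starts 2 and 3 held 1 GC box each. The windows of Ntf3 starts 1 and 2 overlap almost fully and hold the same GC box. Of 33465 windows of this length, 454 (1.36%) held TGACGTCA, 4477 (13.4%) held CGTCA and 8709 held GGGCGG. The table held no entry for Ntrk2, Ntrk3 and Ngfr.

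The depth of the arrays varied. Mean signal per array was between 101.3 and 369.8 intensity units in FR areas and between 84.2 and 310.9 in nonFR areas. Detected probes numbered 6753 to 9525 in FR areas and 5648 to 9477 in nonFR areas, with the lowest count on the nonFR array of slice S2 of B10. Markers of dentate granule cells were present: Calb1 (calbindin) averaged 10.38 ± 1.43 and C1ql2 9.56 ± 1.36 on the log2 scale (SD, n = 21), and both were detected on 21 of 21 arrays. The granule cell transcription factor Prox1 was detected on 15 arrays and lay close to background, at 5.98 ± 0.10. Log2 values below are background-corrected and quantile-normalised intensities, in which the median of all probes was 5.89 and a step of 1 is a factor of 2. The normalisation adds an offset that compresses the differences of dim probes, and levels of different probes cannot be set against each other.

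The first question was whether neurotrophin or receptor transcripts differ between FR areas and nonFR areas. None of the 5 genes passed the test, and neither did any other feature: 0 of 8211 features were called at an adjusted p below 0.05 (0%). The fit was limma with the rat as a fixed block, and its adjusted p was 0.9999 for each of the 5 genes. At an unadjusted p below 0.05 the fit had 29 features (0.353%), and none of the 5 genes was among them. That share is below 0.05, the share that calibrated p-values give on average when no feature differs. The reason was not tested, and a large p in this fit does not show that the areas are alike. The ligands Bdnf and Ntf3 had the largest differences of the 5, both negative, against a median size of 0.060 over all features. Larger differences than that of Bdnf were seen in 0.658% of features, and larger than that of Ntf3 in 0.719%. Both shares rank the size of a difference without regard to spread. Over all arrays, 1.21% of features had a larger SD than Bdnf and 0.865% a larger SD than Ntf3. A sign below 0 by itself was common, as 47.7% of features were lower in FR areas at any p. None of the 5 genes had the same sign in all 6 rats, which 118 features had (1.44%).

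Bdnf was detected on 21 of 21 arrays. Its raw signal spanned 115 to 1027 over FR areas (median 527) and 119 to 2440 over nonFR areas (median 830). Log2 values spanned 6.21 to 10.48 over FR areas (median 9.07) and 7.34 to 11.02 over nonFR areas (median 9.03). The groups overlapped over most of their range, and the medians lay closer together than the means, which were 8.95 ± 1.25 in FR areas and 9.37 ± 1.23 in nonFR areas (SD; 10 and 11 arrays). The fitted difference, FR minus nonFR, was -0.45 (SE 0.41, 95% interval -1.34 to 0.43, unadjusted p = 0.289 with limma).

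Slices of Bdnf pointed both ways. In P91, slice S1 had 6.21 in the FR area and 8.85 in the nonFR area, whereas slice S3 had 9.24 in the FR area and 7.96 in the nonFR area. In B13 the FR area had 7.95 and the nonFR area 10.72. These were the widest gaps, at -2.64, 1.28 and -2.76, and the gaps of P91 had opposite signs in slices of one animal. In B10 the FR area had 8.40 and the nonFR area 7.34 in slice S1, and the FR area had 9.47 and the nonFR area 10.14 in slice S2. B1 had 9.95 in the FR area and 10.59 in the nonFR area. The slices of B3 and B9 differed by -0.83 to 0.41. In all, Bdnf was higher in the FR area in 4 slices and lower in 6, and the mean over slices was higher in 2 rats and lower in 4 (exact sign-flip test over 6 rats, two-sided p = 0.156, where 0.03125 is the smallest p possible). Without B13 the fitted difference was -0.21.

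Ntf3 was detected on 18 of 21 arrays, and the 3 others were all areas of P91. Its raw signal spanned 46.8 to 282 over FR areas (median 91.4) and 51.8 to 1161 over nonFR areas (median 96.3). Log2 values spanned 5.91 to 8.56 over FR areas (median 6.31) and 5.88 to 10.39 over nonFR areas (median 6.49). Most arrays of either group were thus dim, and a few of B1, B13 and B10 were bright. Means were 6.75 ± 0.91 in FR areas and 7.11 ± 1.58 in nonFR areas (SD; 10 and 11 arrays).

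The fitted Ntf3 difference was -0.44 (SE 0.35, 95% interval -1.18 to 0.29, unadjusted p = 0.220 with limma). Ntf3 was lower in the FR area in 6 slices and higher in 4. By the mean over slices it was lower in 5 rats and higher in 1 (exact sign-flip p = 0.0938, two-sided). The mean of B9 was only -0.033, from slices of -0.13 and 0.063. P91 was the rat with a higher mean, and 3 of its 4 areas did not pass detection. Slice S2 of B10 had 7.62 in the FR area and 10.39 in the nonFR area, a gap of -2.77. That nonFR array was the one with the fewest detected probes, its raw Ntf3 signal of 462 was below the 1161 of the nonFR area of B1, and without it the fitted difference was -0.12. Gaps of -0.85 in B1 and -0.80 in B13 were the next widest, and the other 7 slices lay between -0.45 and 0.21. Without B10 the difference was -0.24.

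Ntrk2, which encodes the BDNF receptor TrkB, was detected on 21 of 21 arrays, and its groups overlapped over nearly all of their range. Its log2 values spanned 6.23 to 8.195 over FR areas (median 7.68) and 6.43 to 8.79 over nonFR areas (median 7.32). Means were 7.45 ± 0.68 in FR areas and 7.39 ± 0.68 in nonFR areas, and the fitted difference was 0.050 (SE 0.23, 95% interval -0.44 to 0.54, unadjusted p = 0.832 with limma). It was higher in the FR area in 3 rats and lower in 3 (exact sign-flip p = 0.781). The widest gap was in slice S3 of B9, with 7.97 in the FR area and 6.74 in the nonFR area. The sign of the fitted value turned without B9 (-0.060), without B10 (-0.031) and when each rat counted once (-0.056), so no direction is given for Ntrk2.

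Ntrk3, which encodes the NT-3 receptor TrkC, was detected on 9 of 10 FR arrays and on 10 of 11 nonFR arrays. Its log2 values spanned 5.86 to 7.53 over FR areas (median 6.59) and 5.88 to 7.39 over nonFR areas (median 6.54). The 5 highest values came from 4 FR areas and 1 nonFR area, and the lowest came from an FR area. Means were 6.67 ± 0.71 in FR areas and 6.48 ± 0.45 in nonFR areas, and the fitted difference was 0.22 (SE 0.26, 95% interval -0.34 to 0.78, unadjusted p = 0.422 with limma). The gap was 1.49 in slice S2 of B10, with 7.37 in the FR area and 5.88 in the nonFR area, where the probe was not above background (detection p = 0.293), so that its size has no exact value. It was 1.12 in B1, while slice S1 of P91 had -0.90. Ntrk3 was higher in the FR area in 4 rats and lower in 2 (exact sign-flip p = 0.219), and the fitted value was 0.12 without B1 and 0.12 without B10.

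Ngfr, the gene of the p75 receptor, was at the limit of detection. It was detected on 5 of 10 FR arrays and 6 of 11 nonFR arrays, with raw signals of 29.5 to 91.2 in FR areas and 33.96 to 119 in nonFR areas. Its log2 values were 5.85 to 6.07 in FR areas and 5.88 to 6.34 in nonFR areas. The fitted difference was -0.044 (SE 0.048, 95% interval -0.15 to 0.058, unadjusted p = 0.373 with limma), on a scale where the offset holds dim probes together. The highest values were those of the nonFR areas of slice S3 of P91 (6.34) and slice S1 of B10 (6.11).

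**Figure D1:**
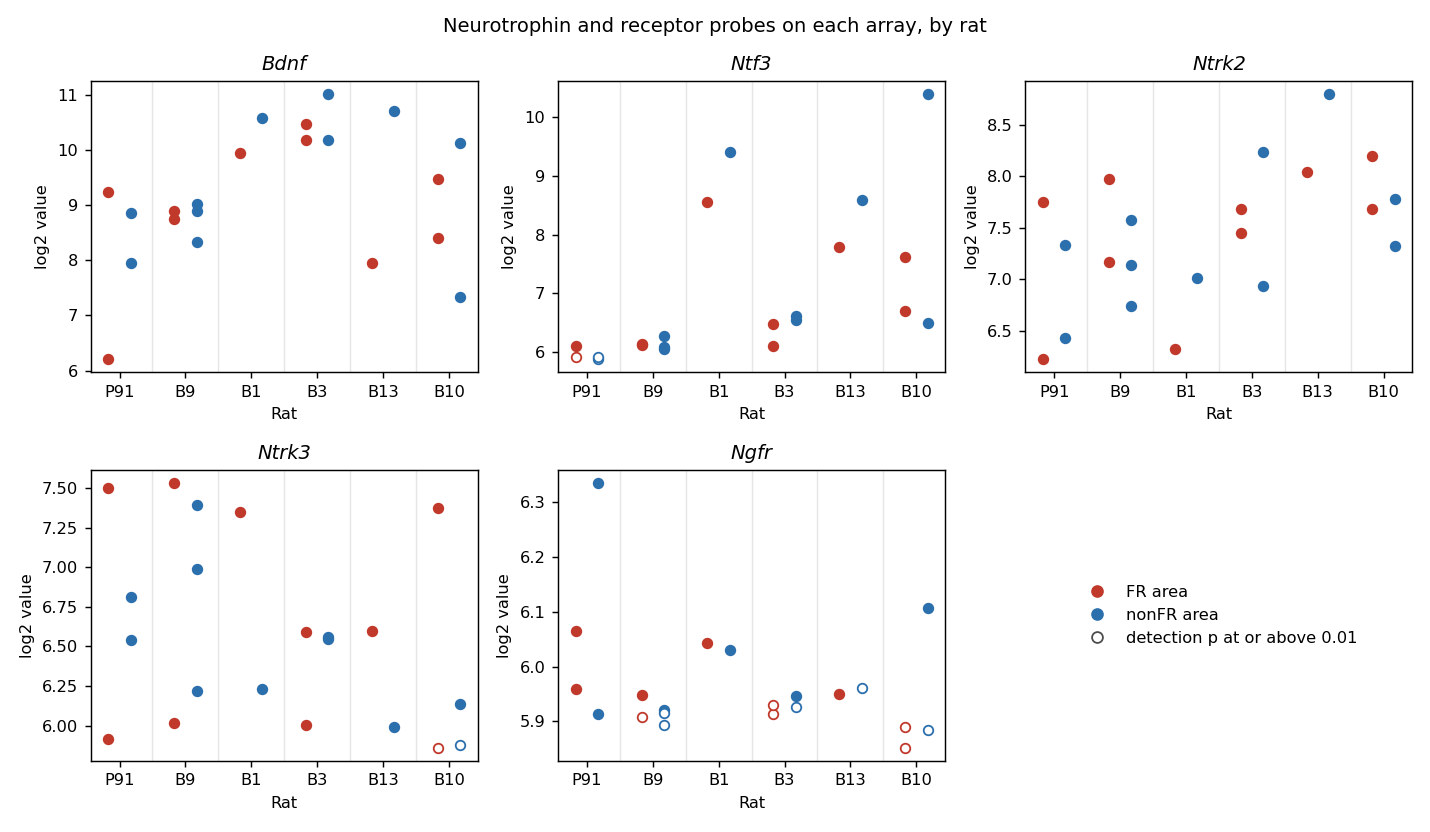
Log2 values of the 5 probes on each array (y axis, background-corrected and quantile-normalised, with a separate scale for each gene), by rat (x axis). Red points are FR areas and blue points are nonFR areas, and open points have a detection p of 0.01 or more. Red and blue points overlap for every gene, and for Ntf3 the points of B1 and B13 lie above all points of P91, B9 and B3.

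**Figure D2:**
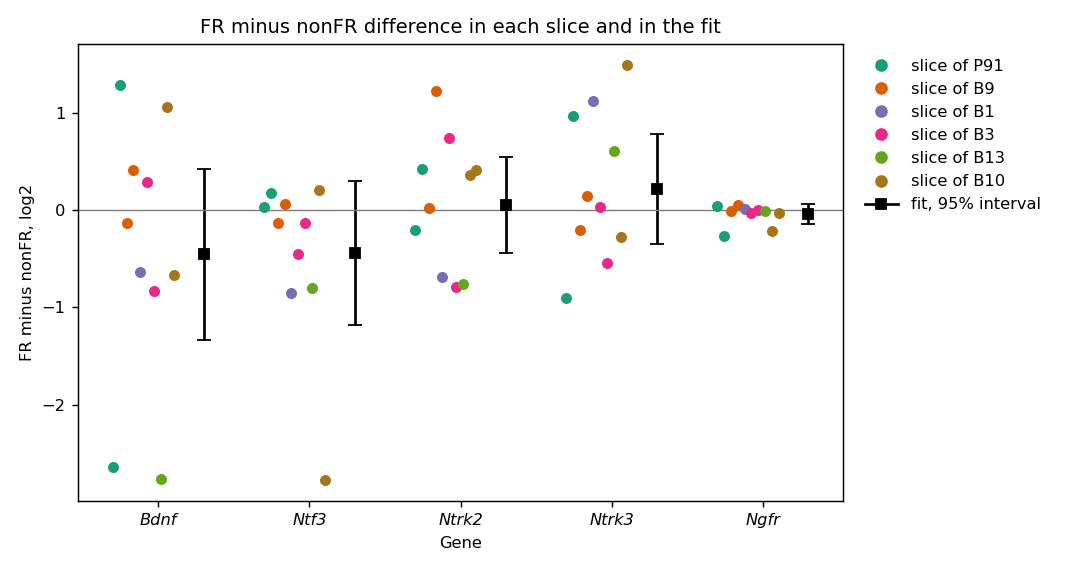
The difference FR minus nonFR in log2 units (y axis) for each gene (x axis), with a point for each of the 10 slices coloured by rat. Black squares are the fitted difference and bars its 95% interval. All 5 intervals include 0, and the widest single gaps are those of Bdnf in B13 and in slice S1 of P91 and of Ntf3 in slice S2 of B10.

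The next question was whether the transcripts differ between rats, all of which had the same treatment by label. Ntf3 did: limma's moderated F-test of the rat gave an adjusted p of 0.0198, where 1099 of 8211 features (13.4%) were called. Rats accounted for 68.1% of the variance of Ntf3 over the 21 arrays. Its mean log2 value was 5.95 ± 0.10 in P91, 6.13 ± 0.083 in B9, 6.43 ± 0.23 in B3, 7.80 ± 1.80 in B10, 8.19 ± 0.57 in B13 and 8.98 ± 0.60 in B1 (SD over 2 to 5 areas). Ranges of neighbours in this order overlapped, down to B13 and B1 with 8.59 as the highest of B13 and 8.56 as the lowest of B1. The areas of B13 and B1 were all above every area of P91, B9 and B3, both in the FR and in the nonFR areas.

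Areas of one slice and slices of one rat share that animal, so this p-value measures the spread of rats against the spread of areas within rats. With the mean of each slice as the sample, Ntf3 had an adjusted p of 0.166 (limma's moderated F-test), and 207 of 8211 features were called. The call was also lost without P91 (adjusted p = 0.0632, same F-test), B9 (0.123), B1 (0.0515) or B3 (0.0611). The shares of all features called in those fits were 7.12%, 2.28%, 16.2% and 4.37%, in the same order. The call was kept without B13 (0.0307, with 10.7% of features called) and without B10 (1.34e-05, 21%). The areas of B10 were spread from 6.49 to 10.39. Without the array with the fewest detected probes the adjusted p of Ntf3 was 0.000125 (same F-test), where 18.5% of all features were called.

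Bdnf did not pass this test (adjusted p = 0.105 with limma), and rats accounted for 50.9% of its variance. Its means were 8.07 ± 1.35 in P91, 8.78 ± 0.27 in B9, 8.84 ± 1.23 in B10, 9.34 ± 1.95 in B13, 10.27 ± 0.45 in B1 and 10.47 ± 0.39 in B3. The areas of B9, B1 and B3 lay close together within each rat, and those of P91, B13 and B10 were spread over 2.76 to 3.03 log2 units. Bdnf passed without B10 (adjusted p = 0.0490), where 21% of all features were called. It also passed with arrays weighted by quality (0.0167), where 31.6% were called.

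The receptors did not pass either. At an unadjusted p below 0.05 the rat test had Bdnf, Ntf3 and Ntrk2, 3 of the 5 genes, and 2734 of all features (33.3%). The adjusted p over all features was 0.114 for Ntrk2, with rat means of 6.67 in B1 to 8.42 in B13, 0.801 for Ntrk3 and 0.475 for Ngfr. Rats accounted for 52.2%, 14.7% and 32.8% of their variance, in that order. For all 5 genes, part of such a share arises from fitting a mean for each rat, even where rats do not differ. The order of the rats differed between the ligands: B3 had the highest mean of Bdnf and was among the 3 lowest for Ntf3, and B1 was high for both.

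Whether the FR minus nonFR difference itself varied between rats was tested on the 10 slice differences. None of the 5 genes passed (unadjusted p of 0.485 for Ntrk2 to 0.922 for Ngfr, limma's moderated F-test), and 0 of 8211 features were called (0%). At an unadjusted p below 0.05 there were 447 features (5.44%). Only 4 rats had 2 slices with both areas, so the spread within rats rests on those.

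Bdnf and Ntf3 varied more over the arrays than most features. The SD over 21 arrays was 1.23 for Bdnf and 1.29 for Ntf3, against a median of 0.39 over all features, and 1.21% of features had a larger SD than Bdnf. Bdnf was set against the granule cell markers. Of 12 such markers, 6 were tested (Prox1, Calb1, C1ql2, Stxbp6, Pdzd2 and Rfx3), and 3 were on the array below the detection filter (Trpc6, Lct and Tdo2). Of those tested, Prox1, Stxbp6 and Pdzd2 lay near background, with means of 5.96 to 5.98 against a median of 5.89 over all probes. The mean log2 value of the 6 tested markers spanned 6.36 to 7.73 over FR areas (median 7.37) and 6.53 to 7.78 over nonFR areas (median 7.47).

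Over 21 arrays the correlation of Bdnf with the granule cell mean was r = 0.80 (Spearman's rho 0.83), and 0.84 without the pair of arrays farthest from the median. It was 0.87 when each value was set against the mean of its rat. Both measures came from the same RNA and the same normalised array, and arrays of a rat are not independent. Bdnf also ran opposite to the interneuron (r = -0.64, -0.65 within rats), oligodendrocyte (-0.60, -0.74) and microglia markers (-0.57, -0.62). Without the pair of arrays farthest from the median of each list, these were -0.31, -0.26 and -0.40 over the arrays. The remaining marker lists had r between -0.34 and 0.058 with Bdnf over the arrays. Within rats their r was -0.50 for CA3 pyramidal and mossy cell markers and -0.44 for endothelial markers. It was -0.37 for astrocyte markers and -0.13 for pericyte, meningeal and Schwann cell markers. Every list other than that of granule cells thus had a negative r with Bdnf within rats. Calb1, the calcium buffer calbindin of mature granule cells, had r = 0.84 with Bdnf by itself, Prox1 had 0.70, Rfx3 0.57, Stxbp6 0.55, the synaptic protein gene C1ql2 0.45 and Pdzd2 0.26. The mean was carried by Calb1 and C1ql2, as the SDs of the other 4 over the arrays were only 0.052 to 0.25. In the slices where Bdnf was lowest in the FR area relative to the nonFR area, the granule cell mean was lower there too. It differed by -0.76 in slice S1 of P91, where Calb1 differed by -1.10 and C1ql2 by -3.35 and the other 4 by -0.10 to 0.040, and by -1.13 in B13, where Calb1 differed by -3.22 and C1ql2 by -2.49. In slice S3 of P91, where Bdnf differed by 1.28, the mean differed by 0.051, with Calb1 at 1.33 and C1ql2 at -0.98.

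In the other 8 slices the granule cell mean differed by -0.18 to 0.19, while Bdnf differed by -0.83 to 1.28. Single markers differed in opposite directions within that mean: in slice S2 of B10 Calb1 differed by -2.81 and C1ql2 by 2.54, with a mean of -0.057. In slice S1 of P91 and in B13 the means of other marker lists were higher in the FR area. Interneuron markers differed by 1.25 in slice S1 of P91 and 0.65 in B13, oligodendrocyte markers by 0.65 and 1.07, and microglia markers by 0.29 and 1.11. Within the interneuron list, Gad1 differed by 2.22 in slice S1 of P91 and by -0.45 in B13. The part of the cell makeup of an area in the Bdnf values was not tested, and in such tissue RNA fewer cells of a type and less RNA per cell cannot be told apart.

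**Figure D3:**
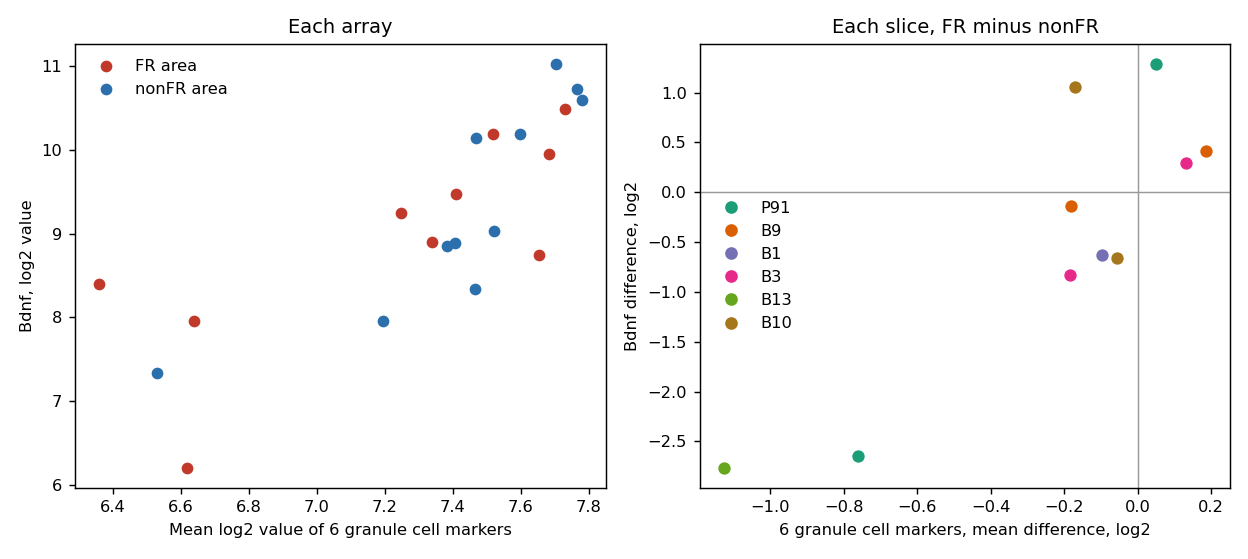
Left, the log2 value of Bdnf (y axis) against the mean log2 value of 6 granule cell markers (x axis) on each array, with FR areas in red and nonFR areas in blue. Right, the FR minus nonFR difference of both in each slice, coloured by rat, with the slices of B13 and one of P91 at the lower left, where the granule cell mean differed by -1.13 and -0.76.

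Ntf3 did not follow the granule cell mean as closely, with r = 0.23 over 21 arrays and 0.63 within rats. It ran opposite to the microglia markers (r = -0.62, rho = -0.80), with r = -0.32 within rats. With the endothelial markers Ntf3 had r = -0.46 (rho = -0.64, and r = -0.036 within rats). With the pericyte, meningeal and Schwann cell markers r was 0.58 (0.24 within rats). Ntrk2 ran opposite to the endothelial markers (r = -0.70, and -0.77 within rats), of which 4 of 11 were tested. Its r was also negative with oligodendrocyte (-0.50, -0.54 within rats), microglia (-0.50, -0.46) and astrocyte markers (-0.49, -0.41). Among the members, Bdnf and Ntf3 had r = 0.46 (0.59 within rats), Bdnf and its receptor Ntrk2 0.38 (0.62 within rats), and Ntf3 and its receptor Ntrk3 -0.22 (-0.17 within rats). These are descriptions over 21 arrays that share animals and a common normalisation.

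The named genes whose deviations within rats were most like those of each member were taken by their Pearson correlation over 21 arrays. For Bdnf these were Ephx4, an epoxide hydrolase family member (r = 0.92), Perp, a membrane protein of cell junctions (0.89), and the zinc finger gene Zcchc12 (0.88). For Ntf3 they were the splicing factor gene Srsf7 (0.95), Mfap1a (0.94) and the dopamine receptor gene Drd1 (0.94). The Ntf3 values rested in part on the nonFR array of slice S2 of B10, without which they were 0.87, 0.82 and 0.87. Without the step that removes rat means, Ntf3 was most like Smndc1 (0.85), Tut4 (0.83) and Rps6kb1 (0.82).

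For Ntrk2 the most alike were Rae1 (r = 0.84), Tsn (0.80) and the activity-induced nuclear receptor gene Nr4a2 (0.77). For Ntrk3 they were Pmepa1 (0.94), the transcription factor gene Klf13 (0.91) and Prkrip1 (0.91). For Ngfr, near background, they were Rhpn1 (0.88), Matn1 (0.88) and A3galt2 (0.85), which were 0.79, 0.74 and 0.67 without the nonFR array of slice S3 of P91.

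The wider pathway was read from lists of genes around the 5 members. Among partners that were to be named whatever their values, 7 were tested and none passed between FR and nonFR areas (limma, adjusted p 0.9999 for each). Plat, the tissue plasminogen activator, a protease that helps to cleave the BDNF precursor, had the largest difference. Its log2 values averaged 7.80 ± 1.07 in FR areas and 7.25 ± 0.68 in nonFR areas (SD; 10 and 11 arrays), with a fitted difference of 0.47 (SE 0.27, unadjusted p = 0.0950). Plat was higher in the FR area in 4 rats and lower in 2 (exact sign-flip p = 0.156), and the fitted value was 0.73 without B9.

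The sorting receptor gene Sort1, partner of p75 for precursor neurotrophins, differed by 0.072 (SE 0.062). Kidins220, a scaffold of Trk receptors, differed by -0.045 (SE 0.13), and the p75 partners Maged1 and Bex3 by -0.0071 (SE 0.14) and -0.045 (SE 0.23). The BDNF-induced gene Vgf differed by 0.15 (SE 0.18), and Arc, an activity-induced gene of dendrites, by -0.12 (SE 0.26). The intervals of all tested partners reach both signs, with -0.093 to 1.04 for Plat and -0.060 to 0.20 for Sort1. The fitted values of Kidins220, Maged1, Bex3, Vgf and Arc each turned sign in at least 1 alternative. Rtn4r, the Nogo receptor that works with p75, was detected on 9 arrays, the transcription factor gene Creb1 on 1 and the Trk adaptor gene Shc3 on 0, so none of these was tested. Furin and Cpe were not analysed here.

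Between rats, 3 of the 7 partners passed: Arc (adjusted p = 0.0185), Kidins220 (0.0271) and Plat (0.0488), all with limma's moderated F-test, against 13.4% of all features. These calls were lost without P91 (0.0604 for Arc, 0.0945 for Kidins220, 0.445 for Plat), without B9 (0.0568, 0.112 and 0.218 in the same order) and without B3 (0.110, 0.110 and 0.0909). The share of all features called was 7.12% without P91, 2.28% without B9 and 4.37% without B3. The calls of all 3 partners were also lost with slice means as the samples (0.0603, 0.113 and 0.0739), where 207 of 8211 features were called. Plat was lost with an offset of 50 (0.0506, 12.3% of features called) or with detection on 3 arrays (0.0604, 10.2%). With no detection filter Plat (0.105) and Kidins220 (0.0572) were lost, where 3.33% of features were called.

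As lists, the pathway genes were split between the directions and 0 passed between FR and nonFR areas. Genes that process and sort neurotrophins numbered 13, with 7 higher and 6 lower in FR areas and a median difference of 0.011. Trk adaptors and downstream kinases numbered 23, with 10 higher, 13 lower and a median of -0.043. Partners and effectors of p75 numbered 20, with 8 higher, 12 lower and a median of -0.0079. Regulators of Bdnf transcription numbered 16, with 7 higher, 9 lower and a median of -0.034. Genes induced by activity or by BDNF numbered 28, with 11 higher, 17 lower and a median of -0.031. Over all 8211 features 4296 were higher, 3915 lower, and the median was 0.0037.

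Between rats, genes of each list passed the test. Among the genes induced by activity or by BDNF, 10 of 28 were called (35.7%, against 13.4% of all features). They included Arc and, chosen here after their values were seen, Atf3 (adjusted p = 0.000669), Junb (0.00236), Npy (0.0141), Fos (0.0154) and Egr1 (0.0436). The count was 2 of 28 without B9, where 2.28% of all features were called, 4 without P91 (7.12%), 5 without B3 (4.37%) and 17 without B10 (21%). Of the processing and sorting genes 4 of 13 were called (30.8%), with 2 without P91, 1 without B3 and 0 without B9. Of the Trk adaptors and kinases 5 of 23 were called (21.7%), with 3 without P91, 1 without B9 and 1 without B3. The shares were 12.5% of the regulators of Bdnf (2 of 16) and 10% of p75 partners (2 of 20), and both lists had 0 calls without B9. All of these counts take areas of a rat as its samples. No list was counted with slice means as the samples. In that setting 207 of all features were called and Arc was lost (limma's moderated F-test, adjusted p = 0.0603).

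**Figure D4:**
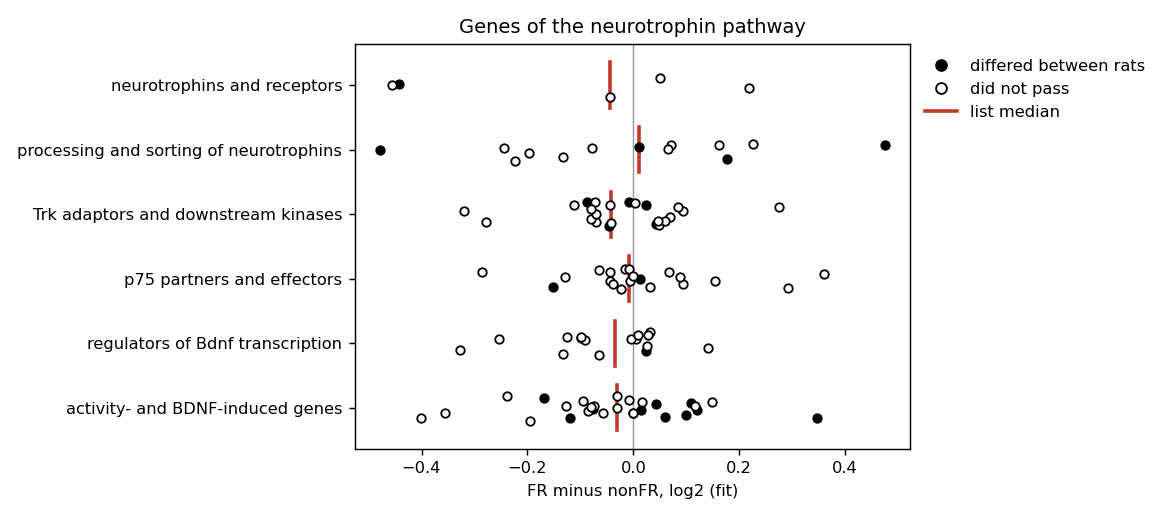
The fitted FR minus nonFR difference in log2 units (x axis) of each tested gene of the 5 members and of 5 pathway lists (y axis). Filled points passed the test between rats and open points did not, and red bars are list medians, which lie between -0.044 and 0.011.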

How the data were processed

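Arrays were Illumina beadchips. The deposited table gave, per the file headers, a signal intensity and a detection p-value for each probe and array, on a linear scale and without normalization as far as the values show. The authors' processed values were deposited as well, read here as log2, for which the submitters' processing notes name lumi 2.2; their log base and transformation are not given in the sources used here, and they served as an alternative.

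Of 22523 probes, 720 were 0 in every column and were dropped. Intensities were background-corrected (neqc, offset 16), quantile-normalised and put on the log2 scale with limma 3.58.1 in R 4.3.3. A probe was kept if its detection p was under 0.01 on 10 or more arrays, and 1 probe per symbol (highest mean) entered the fit, giving 8211 features. limma's lmFit and eBayes were run with area type and rat, adjusted by Benjamini-Hochberg over all features, with a threshold of 0.05. Rats were tested by the F-test of the same fit. The sign-flip test ran over 6 rat means. The code was tested on simulated data.

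Samples of a slice deviated together (mean correlation 0.36 over 10 pairs), as did other slices of a rat (0.35), while arrays of different rats had -0.11, and the labels give rat and slice. Partners were named by a list, some items of which are not reported here: Furin, Plat, Sort1, Cpe, Kidins220, Shc3, Maged1, Bex3, Rtn4r, Creb1, Vgf and Arc, and the 3 genes most like each member by correlation. The members and lists were chosen with earlier results of these data known. The number of arrays limits the precision.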

Additional observations from a re-analysis of the deposited data

Results flagged for a closer look

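Of 25 sets of values examined, 3 held a value far from the others of its set, where chance gives about 1 in 20. The Bdnf difference of B13 was -2.76 and the next lowest of the 6 rats was -0.68. Vgf had 7.78 in the FR area of slice S1 of B9, and the next of the 10 FR areas had 6.26. The mean signal of the FR array of slice S3 of B9 was 369.8 and the next was 243.9.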

How the results depend on the processing

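Between FR and nonFR areas, 0 features were called under each of 17 alternatives. The 5 members kept their sign in all 17 except Ntrk2, with ranges of -0.67 to -0.21 for Bdnf, -0.57 to -0.12 for Ntf3, 0.12 to 0.35 for Ntrk3 and -0.11 to -0.013 for Ngfr. Ntrk2 was -0.056 with means per rat as the replicate block and -0.060 to 0.14 with each rat left out. Without a replicate block Bdnf was -0.41 and Ntf3 -0.36; with the slice as replicate block they were -0.46 and -0.46. Kidins220 was 0.0067 with array weights, 0.037 without the array with the fewest detected probes and -0.12 to 0.023 with each rat left out; Arc was 0.012 with array weights and -0.27 to 0.030 with each rat left out. Leaving out each rat gave -0.10 to 0.039 for Maged1, -0.19 to 0.099 for Bex3 and -0.063 to 0.26 for Vgf. At an unadjusted p below 0.05 the count was 29, against 76 with detection on 3 arrays, 547 with no filter, 10 with no replicate block, 48 with the slice as replicate block, 119 with means per rat, 52 with array weights and 24 to 137 with each rat left out. Between rats the count was 1099, against 724 with no filter, 2598 with array weights, 207 with slice means (chosen after the data were seen) and 187 to 1723 with each rat left out. The adjusted p for Bdnf was 0.0167 with array weights and 0.0490 to 0.433 with each rat left out, and for Ntf3 1.34e-05 to 0.123 with each rat left out and 0.166 with slice means. The cause of these changes was not tested. Each member had 1 probe, so no other probe could be tried, and Ngfr was too close to background on 10 arrays for its level there to be more than a bound.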
